A study of Mus musculus with 3 samples.

Results

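Adhesion G protein-coupled receptors and the receptors and proteins with Gpr names were examined in 3 bulk RNA sequencing libraries of sorted mouse mammary cells. Members were the protein-coding genes whose symbols follow the Gpr, Gprc5a to Gprc5d or Adgr naming, which gave 104 genes of the 52661 in each deposited table. Of these, 27 were adhesion receptors and 77 carried Gpr or Gprc5 names. The labels describe all 3 populations as PROCR+ mammary epithelial cells taken from EpCAM+ cells with high CD49f. The CD36+ library held CD36+, PDPN- cells with a Cdh5+ title. The PDPN+ library held CD36-, PDPN+ cells with a Cdh5- title, and the double-negative library held CD36-, PDPN- cells with a Cdh5+ title. Each population had 1 library. Values therefore carry no replicate error, and populations could not be tested against each other. The sources used here give no strain, age, number of mice or number of cells.

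G protein-coupled receptors cross the membrane in a bundle of helices and pass a signal to G proteins inside the cell. Adhesion receptors add a long extracellular part that binds matrix or neighbouring cells, and many are cut at a conserved site close to the membrane. An orphan receptor is one whose natural ligand is unknown or disputed. Some genes with Gpr names encode Golgi or lysosomal proteins and not classical receptors, and they are described separately here.

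Levels of 1 gene across libraries are given in CPM, counts scaled to library size by TMM. Levels of different genes are compared by the deposited TPM, which corrects for transcript length. A gene is called apart between a pair of libraries where the ratio was at least 4-fold (log2 ratio with a prior count of 2) and the level on the higher side was 10 CPM or more. Below, a population's name stands for its 1 library, and values given 3 together follow the order CD36+, PDPN+, double-negative. Intervals beside folds are exact 95% Clopper-Pearson intervals and cover counting error only. Where the lower library had 0 counts, the fold is a bound computed against 3 counts in that library.

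The libraries held 67675778 (CD36+), 63871266 (PDPN+) and 51138993 (double-negative) estimated counts. The labels call all populations epithelial, and the marker genes divided the libraries. All 12 endothelial markers were apart and higher in the CD36+ and in the double-negative library than in the PDPN+ library, with summed levels of 6610.1, 143 and 4585 CPM. The 10 basal epithelial markers summed to 98.4, 6024 and 245 CPM, and 9 and 10 of them were apart and lower in the CD36+ and double-negative library. Luminal epithelial markers summed to 418, 663 and 319 CPM. Immune markers summed to 46.1, 8.88 and 62.7 CPM, with the pan-leukocyte gene Ptprc at 1.10, 0.798 and 0.970 CPM. Fibroblast markers summed to 116, 667 and 61.5 CPM, pericyte markers to 259, 70.6 and 189 CPM, Schwann cell markers to 7.55, 71.4 and 10.8 CPM, adipocyte markers to 37.3, 25.8 and 18.6 CPM and platelet markers to 13.4, 8.98 and 24.5 CPM. Lymphatic markers summed to 64.4, 119 and 3503 CPM, and nearly all of the last sum was the chemokine gene Ccl21a at 3463 CPM. What part these differences in cell makeup have in the receptor levels was not tested. In such bulk samples, fewer cells of a type and less RNA per cell cannot be told apart.

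Most of the receptor genes were low or not detected. At least 10 CPM in any library was reached by 28 of the 104 members (26.9%), against 42.6% of 21786 protein-coding genes. Another 24 members reached 1 to under 10 CPM, 44 had counts but stayed under 1 CPM in every library, and 8 had 0 counts in all 3. A count of 0 allows up to 0.0507, 0.0406 and 0.0594 CPM (3 counts) in CD36+, PDPN+ and double-negative cells. The members at 10 CPM or more were 12 of the 27 adhesion receptors and 16 of the other 77 genes. Only 4 members (3.85%) held at least 10 CPM in all 3 libraries, against 22.5% of protein-coding genes: the adhesion receptors Adgrl2, Adgrg1, Adgrg6 and Adgra2.

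By summed TPM, the adhesion receptors made up 71.2% of the members' transcripts in CD36+ cells, 51.2% in PDPN+ cells and 84.3% in double-negative cells. The sums over all members were 816, 383 and 549 TPM. The CD36+ library was led by Adgrl4 (191 TPM), Adgrf5 (155) and Adgrl2 (126), followed by Gpr160 (99.7) and Adgrg1 (57.5). The double-negative library had the same leading 3 in the order Adgrl4 (147), Adgrl2 (127) and Adgrf5 (103), then Adgrg1 (41.7). The PDPN+ library had no such leaders, and its highest were Adgrg1 (41.3), Adgrl2 (34.2), Gpr107 (33.4) and Adgra3 (29.0). The TPM of Adgrl2 rests on effective lengths of only 123 to 158 bases, and that of Adgrg1 on 264 to 282 bases. That of Gpr160 rests on 306 bases in CD36+ cells, and that of Gpr107 on 283 bases in PDPN+ cells. The ranks of these genes therefore depend on the short transcripts to which reads were assigned.

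**Figure D1:**
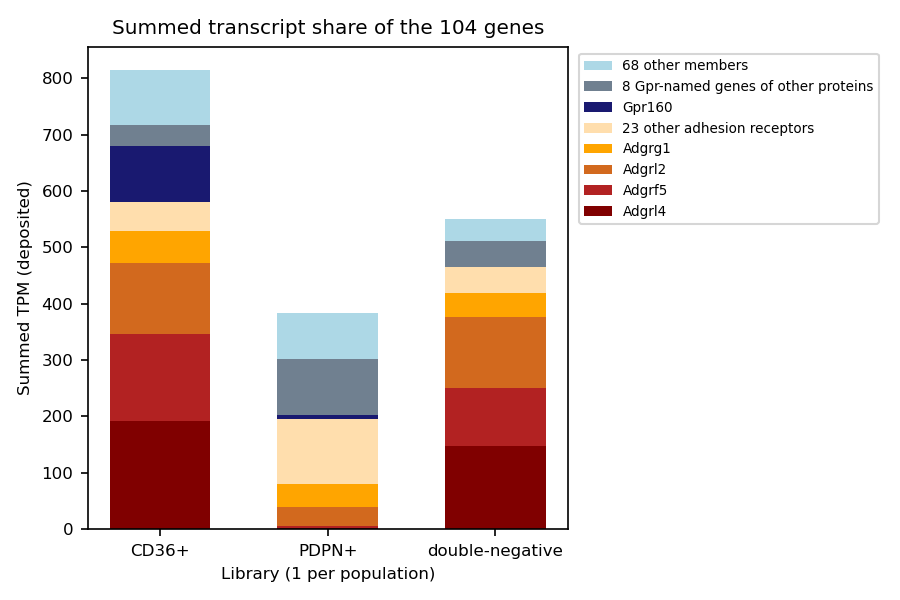
Summed deposited TPM of the 104 genes in each library (x axis, 1 library per population; y axis, TPM), divided by gene or group of genes. Adgrl4, Adgrf5 and Adgrl2 fill most of the CD36+ and double-negative bars, and the PDPN+ bar is spread over other adhesion receptors and Gpr-named genes.

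**Figure D2:**
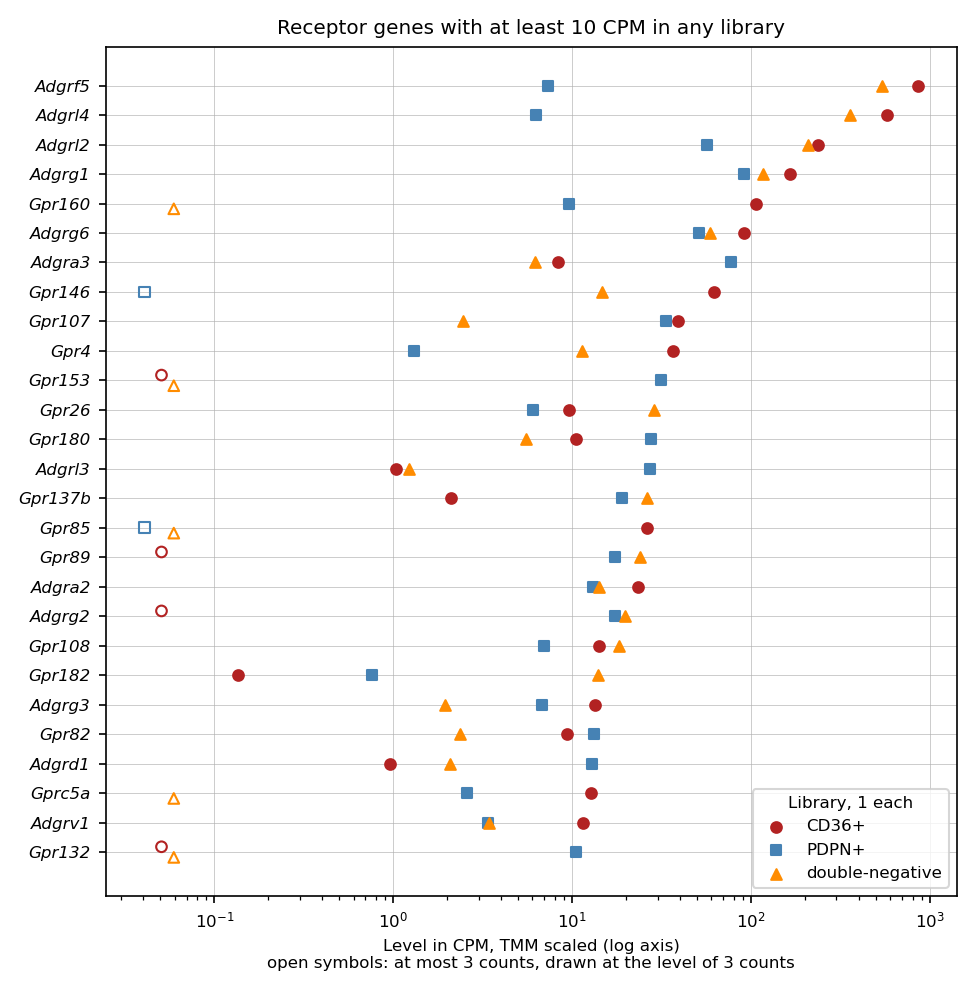
Level of 27 of the 28 genes that reached 10 CPM in a library (y axis, ordered by highest level) in CPM on a log axis, with 1 symbol per library; open symbols mark at most 3 counts. The top rows, Adgrf5 and Adgrl4, have their PDPN+ symbol far to the left of the other symbols, and 8 of the genes drawn have an open symbol in at least 1 library.

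Of 26 members with at least 10 CPM in CD36+ or PDPN+ cells (the tested members of that pair), 8 were apart and higher in CD36+ cells, where 15.1% of all 9387 tested genes were, and 8 were apart and lower, where 17.6% of all genes were. The higher members were Adgrf5, Adgrl4, Adgrl2, Gpr160, Gpr146, Gpr4, Gpr85 and Gprc5a. The lower members were Adgra3, Gpr153, Adgrl3, Gpr137b, Gpr89, Adgrg2, Adgrd1 and Gpr132. The median log2 ratio of the 26 was 0.83, against -0.02 over all tested genes. Of 23 members tested between double-negative and PDPN+ cells, 6 were higher in double-negative cells (14.9% of all 9515 genes) and 9 were lower (19.3%), with a median of 0.20 against -0.11. The higher members were Adgrf5, Adgrl4, Gpr146, Gpr182, Gpr26 and Gpr4, and the lower ones included Adgra3, Adgrd1, Adgrl3, Gpr107, Gpr132, Gpr153, Gpr180 and Gpr82. Both comparisons use the same PDPN+ library. Between CD36+ and double-negative cells, 7 of 22 members were higher in CD36+ cells (12.2% of all 8968 genes) and 4 were lower (11.9%), with a median of 0.70 against 0.11. Higher members of this pair included Adgrg3, Gpr107, Gpr146, Gpr160, Gpr85 and Gprc5a, and the lower ones were Adgrg2, Gpr137b, Gpr182 and Gpr89. In CPM each count was a larger share of the 22 to 26 members tested than the share over all genes, with no replicate to give either share an error. By TPM with a minimum of 10 TPM, 3 of the shares nearly met those over all genes: 2 of 15 members higher in double-negative than in PDPN+ cells against 12.7% of genes, 4 of 17 lower in CD36+ than in PDPN+ cells against 22.3%, and 2 of 14 lower in CD36+ than in double-negative cells against 12.8%. The medians also shrank when members from 1 CPM were taken in, to 0.16 over 46 members (all genes -0.09) for CD36+ against PDPN+, to 0.15 over 48 (all genes -0.10) for double-negative against PDPN+ and to 0.30 over 42 (all genes 0.04) for CD36+ against double-negative.

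**Figure D3:**
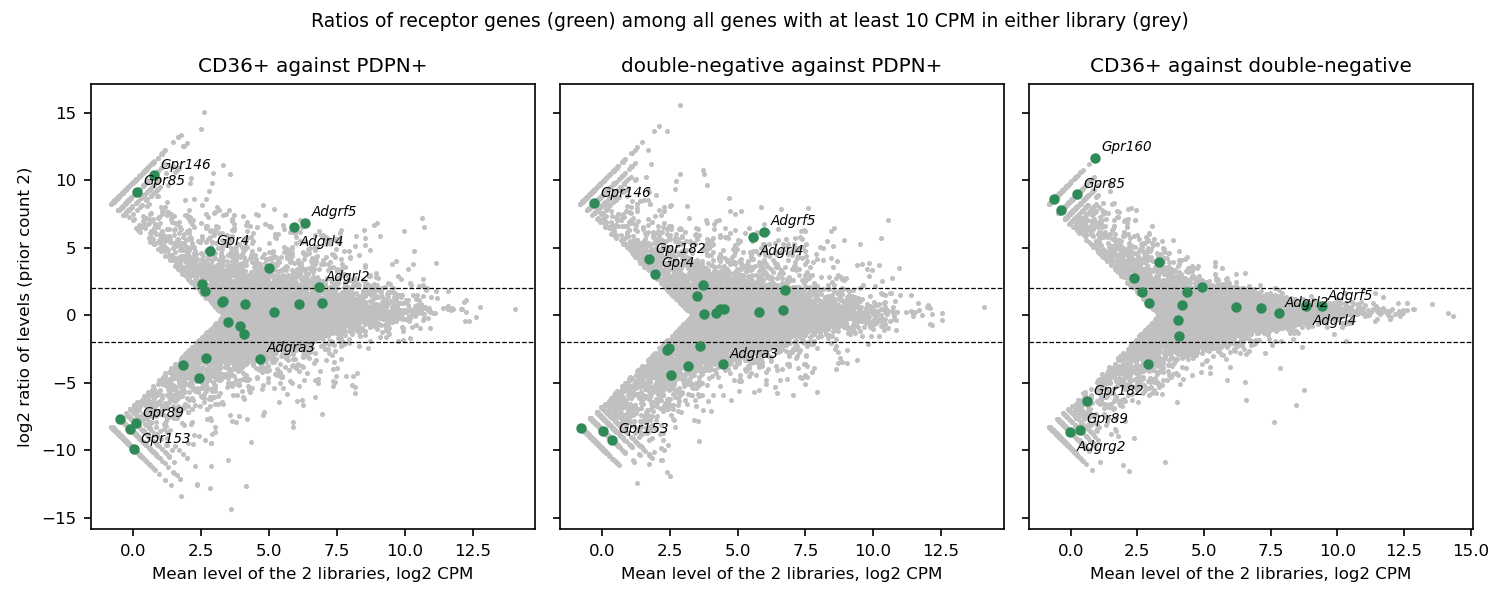
Log2 ratio (y axis) against the mean log2 CPM of the pair (x axis) for each pair of libraries, with the receptor genes in green, all other genes with at least 10 CPM in either library in grey and dashed lines at 4-fold. Adgrf5 and Adgrl4 stand above the line at high mean level in both comparisons with the PDPN+ library and close to 0 between CD36+ and double-negative cells.

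By TPM, Adgrf5 and Adgrl4 were among the leading 3 members in both PDPN-negative libraries and far down in PDPN+ cells. Adgrf5, an adhesion receptor of endothelium and of lung surfactant cells (chr17:43360451-43459557, plus strand, mm10), reached 860.0 CPM in CD36+ cells, 7.36 in PDPN+ cells and 540.3 in double-negative cells. It was 117-fold higher in CD36+ than in PDPN+ cells (107 to 127) and 73.4-fold higher in double-negative cells (67.5 to 80.1). By TPM these ratios were smaller, 64.2 and 42.5. Adgrl4, known for its part in vessel sprouting (chr3:151437887-151545086, plus strand), reached 574, 6.27 and 359 CPM. Its ratios to the PDPN+ library were 91.5 (83.5 to 101) and 57.2 (52.2 to 62.9). Both genes differed little between CD36+ and double-negative cells, 1.59-fold for Adgrf5 (1.57 to 1.62) and 1.60-fold for Adgrl4 (1.57 to 1.63), both higher in CD36+ cells.

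Adgrl2, a latrophilin that binds teneurin and FLRT proteins of other cells, was present in all 3 libraries, at 236, 56.4 and 209 CPM. It was 4.18-fold higher in CD36+ than in PDPN+ cells (4.04 to 4.33), a ratio that came to 1.66 on the log2 scale under total-count scaling and to 1.88 by TPM, under 4-fold in both. Its order between CD36+ and double-negative cells turned under the same settings. The latrophilins Adgrl3 and Adgrl1 took the opposite direction. Adgrl3 stood at 1.03, 27.4 and 1.23 CPM and was 26.6-fold lower in CD36+ cells (20.6 to 34.9) and 22.3-fold lower in double-negative cells (17.3 to 29.2). By TPM the first of these was 9.62-fold, with an effective length of 24.7 bases in CD36+ cells against 119 in PDPN+ cells. Adgrl1 had 1 count in CD36+ cells and 4 in double-negative cells, against 7.59 CPM in PDPN+ cells.

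The A subfamily was led by the PDPN+ library. Adgra3, a receptor linked to Wnt signalling (chr5:49959956-50059006, minus strand), reached 8.34, 77.6 and 6.24 CPM, 9.30-fold lower in CD36+ cells (8.48 to 10.2) and 12.4-fold lower in double-negative cells (11.1 to 14.0). Adgra2, a partner of Reck in Wnt7 signalling in brain vessels, stood at 23.2, 13.0 and 14.1 CPM. Its order was not stable, since by TPM (14.4, 20.8 and 13.8) the PDPN+ library was the highest. Reck itself stood at 0.0845 CPM in CD36+ cells and 6.71 in PDPN+ cells and had 0 counts in double-negative cells. Adgra1 had 259 counts (3.50 CPM) in PDPN+ cells and 1 count in each of the others.

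Among the G subfamily, Adgrg1 and Adgrg6 differed little between libraries. Adgrg1, which binds collagen III and transglutaminase 2, stood at 166, 90.9 and 117 CPM, at most 1.83-fold apart (1.77 to 1.88). Adgrg6, a receptor required for myelination by Schwann cells, stood at 90.8, 51.2 and 59.0 CPM, at most 1.77-fold apart (1.70 to 1.85). The order of the PDPN+ and double-negative libraries turned for Adgrg6 under total-count scaling and by TPM. Adgrg2, first known from the epididymis, stood apart from this pattern, with 1286 and 1000 counts (17.4 and 19.8 CPM) in the PDPN+ and double-negative libraries and 1 count in CD36+ cells. The order of the first pair turned by TPM and total-count scaling. Adgrg3, known from neutrophils, stood at 13.5, 6.81 and 1.94 CPM and was 6.97-fold higher in CD36+ than in double-negative cells (5.65 to 8.69).

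Adgrd1, an adhesion receptor that signals through cyclic AMP, was highest in PDPN+ cells, at 0.963, 12.9 and 2.08 CPM. It was 13.4-fold lower in CD36+ cells (10.2 to 17.8) and 6.19-fold lower in double-negative cells (5.06 to 7.65). Adgrv1, the very large receptor of hair cell links, stood at 11.5, 3.37 and 3.43 CPM, the last pair in an order that turned by TPM and total-count scaling. Its TPM rests on effective lengths of 124 to 349.8 bases, short for so large a gene. The brain angiogenesis inhibitor genes were low: Adgrb1 reached 6.25 CPM in PDPN+ cells, Adgrb2 3.90 in double-negative cells, with 0 counts in CD36+ cells, and Adgrb3 stayed under 1 CPM. All 3 measured members of the leukocyte-type E subfamily stayed under 1 CPM, and Adgre5, the highest, had 46, 0 and 2 counts. The 4 other F subfamily genes, Adgrf1 to Adgrf4, also stayed under 1 CPM.

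The promoters of the more abundant members that were apart in both comparisons with PDPN+ cells are shown so that their sequence can be set beside their levels. The rule took members at least 4-fold higher, and members at least 4-fold lower, in both PDPN-negative libraries than in PDPN+ cells, with at least 20 CPM in any library, up to 4 of each. It gave Adgrf5, Adgrl4, Gpr146 and Gpr4 on the higher side and Adgra3, Gpr153 and Adgrl3 on the lower side. Sequences are from RefSeq on GRCm38.p6, the same assembly as mm10, and run 5′ to 3′ from 250 bases before to 50 bases after the most upstream listed start of the gene. Their positions are chr17:43360181-43360480 for Adgrf5, chr3:151437632-151437931 for Adgrl4, chr5:139377447-139377746 for Gpr146, chr7:19212288-19212587 for Gpr4, chr5:50058947-50059246 for Adgra3, chr4:152273862-152274161 for Gpr153 and chr5:81020321-81020620 for Adgrl3, that of Adgra3 on the minus strand and the others on the plus strand. Capitals mark matches to the E-box CANNTG, the site type bound by E proteins such as the TCF4 named in the study's title.
Adgrf5: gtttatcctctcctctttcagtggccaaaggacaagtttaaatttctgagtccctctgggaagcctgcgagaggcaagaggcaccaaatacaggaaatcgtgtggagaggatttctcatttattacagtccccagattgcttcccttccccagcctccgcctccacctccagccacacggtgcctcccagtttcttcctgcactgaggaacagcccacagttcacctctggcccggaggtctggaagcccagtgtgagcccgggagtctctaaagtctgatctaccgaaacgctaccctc
Adgrl4: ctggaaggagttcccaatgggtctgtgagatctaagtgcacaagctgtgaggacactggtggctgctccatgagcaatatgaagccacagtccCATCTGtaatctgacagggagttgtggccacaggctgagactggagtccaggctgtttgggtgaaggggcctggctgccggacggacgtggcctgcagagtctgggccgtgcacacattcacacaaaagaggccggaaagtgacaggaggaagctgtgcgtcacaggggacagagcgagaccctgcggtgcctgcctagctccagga
Gpr146: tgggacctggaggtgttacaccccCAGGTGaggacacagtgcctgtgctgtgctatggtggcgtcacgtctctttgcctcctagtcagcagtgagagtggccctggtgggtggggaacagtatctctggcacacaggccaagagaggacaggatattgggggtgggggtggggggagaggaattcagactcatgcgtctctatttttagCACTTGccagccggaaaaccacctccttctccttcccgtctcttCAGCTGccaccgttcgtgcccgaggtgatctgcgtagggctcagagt
Gpr4: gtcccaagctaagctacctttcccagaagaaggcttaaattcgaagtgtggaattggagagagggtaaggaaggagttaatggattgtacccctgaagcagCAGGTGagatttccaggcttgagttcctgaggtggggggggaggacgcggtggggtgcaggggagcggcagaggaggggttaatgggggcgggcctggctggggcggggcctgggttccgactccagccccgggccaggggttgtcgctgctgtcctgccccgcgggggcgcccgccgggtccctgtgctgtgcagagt
Adgra3: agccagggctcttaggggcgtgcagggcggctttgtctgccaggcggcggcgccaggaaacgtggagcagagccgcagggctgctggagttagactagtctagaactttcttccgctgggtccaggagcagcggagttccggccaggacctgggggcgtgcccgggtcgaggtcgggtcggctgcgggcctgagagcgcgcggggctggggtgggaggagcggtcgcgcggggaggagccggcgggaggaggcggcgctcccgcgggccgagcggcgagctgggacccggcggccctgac
Gpr153: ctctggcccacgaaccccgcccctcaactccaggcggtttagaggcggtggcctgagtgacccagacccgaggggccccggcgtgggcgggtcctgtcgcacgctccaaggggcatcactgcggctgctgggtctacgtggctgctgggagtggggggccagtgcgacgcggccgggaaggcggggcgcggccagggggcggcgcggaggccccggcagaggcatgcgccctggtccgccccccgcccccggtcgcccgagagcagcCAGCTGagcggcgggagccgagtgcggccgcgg
Adgrl3: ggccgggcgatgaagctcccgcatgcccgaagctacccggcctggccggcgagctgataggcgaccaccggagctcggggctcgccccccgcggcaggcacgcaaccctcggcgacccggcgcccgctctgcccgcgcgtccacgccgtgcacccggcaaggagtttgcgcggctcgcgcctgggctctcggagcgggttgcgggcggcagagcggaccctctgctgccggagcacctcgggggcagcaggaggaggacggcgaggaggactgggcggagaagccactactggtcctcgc

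The E-box CANNTG, which reads the same on both strands as a pattern, was found in 3 of the 4 promoters of the higher members and in 1 of the 3 of the lower members. It was present in 72.3% of all 32851 listed promoters of this length. The narrower form CAGGTG, searched on both strands and contained in CANNTG, was found in the promoters of Gpr146 and Gpr4 and in 20.2% of all promoters. The ETS core GGAA, searched on both strands and able to share 1 base with an E-box, had 7 matches in Adgrf5, 4 in Adgrl4, 4 in Gpr146 and 6 in Gpr4, against 3 in Adgra3, 1 in Gpr153 and 0 in Adgrl3. The median over all promoters was 3, and 96.0% held at least 1. The groups also differed in base composition: the higher members' promoters had 54.3% to 64.0% G and C with 8 to 14 CG steps, the lower members' 74.0% to 77.3% with 34 to 40, and the median of all promoters was 52.7% with 7. The part of base composition in the motif counts was not tested. Of the 104 members, 74 matched this promoter table by symbol.

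**Figure D4:**
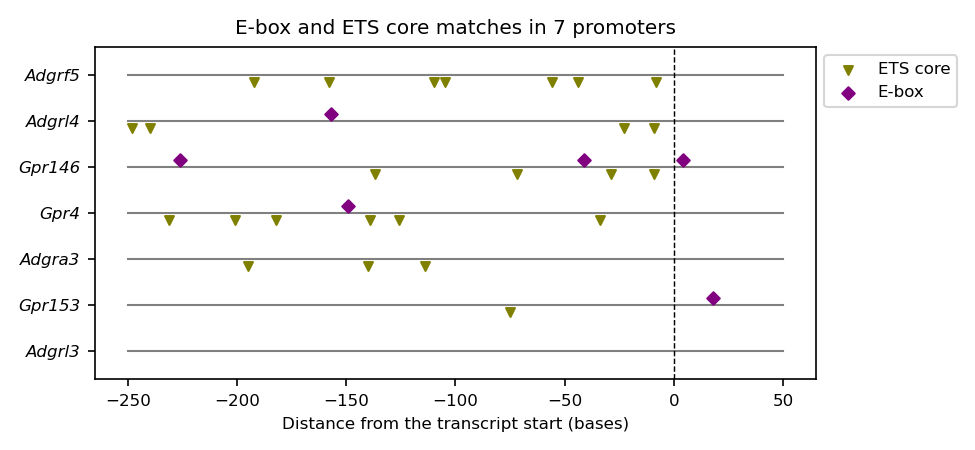
Matches to the E-box (diamonds) and the ETS core (triangles) along the 7 promoters, by distance from the transcript start in bases (x axis; dashed line at the start). Adgrf5 has 7 ETS core matches and no E-box, and Adgrl3 has neither.

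Of the proton-sensing receptors, which respond to acid outside the cell, Gpr4 was higher in both PDPN-negative libraries. Gpr4, an endothelial receptor (chr7:19212538-19224174, plus strand), reached 36.8 CPM in CD36+ cells, 1.31 in PDPN+ cells and 11.4 in double-negative cells. It was 28.1-fold (22.9 to 34.8) and 8.70-fold higher than in PDPN+ cells (2181 and 576 counts against 97), and 3.23-fold higher in CD36+ than in double-negative cells (2.94 to 3.55). Gpr132 went the other way, with 1 count in CD36+ cells, 776 counts (10.5 CPM) in PDPN+ cells and 0 counts in double-negative cells. Gpr65, a proton sensor of leukocytes, had 0, 1 and 0 counts.

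Gpr146, a receptor linked to cholesterol handling in the liver (chr5:139377697-139396415, plus strand), reached 61.9 CPM in CD36+ cells and 14.6 in double-negative cells and had 1 count in PDPN+ cells. Its ratio between CD36+ and double-negative cells was 4.25 (3.93 to 4.61), or 3.79 by TPM and 1.91 on the log2 scale under total-count scaling, both under 4-fold. Gpr160, an orphan (chr3:30855950-30897192, plus strand), was the member outside the adhesion family with the highest TPM (99.7 in CD36+ cells), at 107 CPM in CD36+ cells and 9.57 in PDPN+ cells. In the double-negative library it had 0 counts, so that it was at least 1806-fold higher in CD36+ than in double-negative cells. Gpr85, a conserved brain receptor of the SREB group, had 1556 counts (26.3 CPM) in CD36+ cells and 1 count in each of the others. Gpr182, a scavenging chemokine receptor of sinusoidal and lymphatic endothelium, was highest in double-negative cells, with 8, 56 and 706 counts (0.135, 0.757 and 14.0 CPM). It was 103-fold higher there than in CD36+ cells (52.2 to 241) and 18.5-fold higher than in PDPN+ cells (14.1 to 24.7). In that library Ccl21a also stood at 3463 CPM, against 34.4 in CD36+ cells, and the lymphatic regulator Prox1 stood at 18.1, 6.15 and 21.1 CPM. The other 4 lymphatic markers were not highest there: Mmrn1 stood at 0, 43.5 and 15.4 CPM, Reln at 0.0676, 25.3 and 0.139, Flt4 at 11.9, 4.12 and 3.09, and Lyve1 had 1, 14 and 2 counts. Gpr182 shares 74 exon bases with Zbtb39 on the opposite strand, which was lowest in double-negative cells (8.31, 13.9 and 5.53 CPM).

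Gpr153, an orphan receptor (chr4:152274232-152285337, plus strand), was found only in PDPN+ cells above 1 count, with 0, 2333 and 1 counts and 31.5 CPM in PDPN+ cells. It was at least 622-fold lower in CD36+ cells. Gpr82 stood at 9.36, 13.2 and 2.36 CPM and lies inside Cask, which is on the opposite strand and stood at 63.5, 53.3 and 84.9 CPM. Gpr26, a constitutively active receptor of the brain, stood at 9.66, 6.08 and 28.5 CPM and was 4.69-fold higher in double-negative than in PDPN+ cells (4.21 to 5.22), or 3.66-fold by TPM and 1.99 on the log2 scale under total-count scaling. Gpr26 lies inside the annotated span of Fgfr2 on the opposite strand, which stood at 22.1, 157 and 54.5 CPM. The 2 genes share 0 exon bases. The sources used here do not say whether reads of the 2 strands were kept apart.

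The class C orphan Gprc5a, a gene induced by retinoic acid, stood at 12.7 CPM in CD36+ cells and 2.60 in PDPN+ cells and had 0 counts in double-negative cells. The 4.91-fold ratio of the first pair (4.18 to 5.78) came to 3.50-fold by TPM and to 1.88 on the log2 scale under total-count scaling. Its relative Gprc5b also had 0 counts in double-negative cells, but stood at 8.97 and 7.95 CPM in the other libraries, 1.13-fold apart (531 and 588 counts), in an order that turned under total-count scaling. Gprc5c stayed under 1 CPM, and Gprc5d had 0 counts in all 3.

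The 8 genes with Gpr names that encode Golgi, lysosomal and other membrane proteins took 25.8% of the members' TPM in PDPN+ cells, 4.49% in CD36+ cells and 8.69% in double-negative cells. Gpr107, a Golgi protein, stood at 39.1, 33.4 and 2.46 CPM. It was 15.9-fold lower in double-negative than in CD36+ cells (13.3 to 19.2), and its order between the other libraries turned by TPM (18.5 and 33.4) and under total-count scaling. Gpr89, the Golgi pH regulator, had 2 counts in CD36+ cells against 17.3 and 23.9 CPM in the PDPN+ and double-negative libraries. The order of the latter pair turned by TPM (22.7 and 15.9). Gpr137b, a lysosomal protein, was also lowest in CD36+ cells, at 2.11, 19.1 and 26.3 CPM, but its pseudogene Gpr137b-ps on the same chromosome stood at 15.1, 7.15 and 52.4 CPM, and a split of reads between them is uncertain. Gpr180 stood at 10.5, 27.5 and 5.53 CPM and was 4.98-fold lower in double-negative than in PDPN+ cells (4.39 to 5.66). Gpr108, a relative of Gpr107, was the most even of this group, at 14.2, 6.94 and 18.2 CPM.

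Some members were at or near 0 counts in 1 library and above 10 CPM in another. At most 3 counts in at least 1 library were found for 9 of the 28 members with 10 CPM or more, against 13.4% of all such genes. They included Gpr160, Gpr146, Gpr153, Gpr85, Gpr89, Adgrg2, Gprc5a and Gpr132. Among genes whose highest level was 10 to 110 CPM, the numbers were 9 of 24 members and 17.3% of all 7627 genes. This upper limit lies just above the highest of the 9, Gpr160 at 107 CPM. It removes only members that had more than 3 counts in every library, so the rise in the member share was fixed by the limit. By pair, with at least 10 CPM on the other side, at most 3 counts in PDPN+ cells were seen for 2 members against the CD36+ library (2.70% of all genes) and 1 against the double-negative library (3.06%). In the CD36+ library it was 4 members against the PDPN+ library (4.82%) and 2 against the double-negative library (3.36%), and in double-negative cells 3 against the PDPN+ library (5.06%) and 4 against the CD36+ library (3.20%). Of these, Gpr160 and Gprc5a had at most 3 counts in double-negative cells only, Gpr89 and Adgrg2 in CD36+ cells only, and Gpr146 in PDPN+ cells only. Gpr153 and Gpr132 had at most 3 counts in both PDPN-negative libraries, and Gpr85 in both CD36-negative libraries. Per the labels, samples with little RNA used a low-input kit and others a stranded kit, and the labels do not say which library used which, so library chemistry and population cannot be told apart in these patterns.

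Below 10 CPM, 24 members reached at least 1 CPM in a library. With the minimum lowered to 1 CPM, 13 of 46 members were apart and higher in CD36+ than in PDPN+ cells (16.8% of all 16234 genes) and 18 were lower (22.8%). For the double-negative library the numbers were 12 of 48 higher (16.5% of 16344) and 21 lower (24.3%). In CD36+ against double-negative cells they were 11 of 42 higher (17.5% of 15504) and 10 lower (16.7%). Gpr39, the zinc receptor, had 736 counts (9.95 CPM) in PDPN+ cells and 0 in the others. It shares 1202 exon bases with Lypd1 on the opposite strand, which stood at 0.929, 1.34 and 0.337 CPM. Gpr35, a receptor of kynurenic acid and other small acids, stood at 0.557, 8.45 and 0.673 CPM. Gpr3, which keeps cyclic AMP high without a known ligand, had 245 counts in PDPN+ cells and 0 in the others, and shares 204 exon bases with Cd164l2, which was also high there (7.94 CPM). Gpr161, a regulator of Hedgehog signalling in the primary cilium, had 0, 85 and 1 counts.

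Gpr171 had 349 counts (6.91 CPM) and Gpr34, a receptor of lysophosphatidylserine, 311 counts (6.16 CPM) in double-negative cells, with 0 counts of either in the CD36+ and PDPN+ libraries. Gpr34 lies inside Cask. Gpr183, the oxysterol receptor, stood at 0.321, 0.392 and 1.53 CPM, and Gpr174, Gpr18 and Gpr84 stayed under 1 CPM, the last 2 with 0 counts in all libraries. Beside these, Ptprc stood at 1.10, 0.798 and 0.970 CPM, Coro1a had 351, 0 and 205 counts, and the Fc receptor chain Fcer1g stood at 21.4 and 57.4 CPM in the CD36+ and double-negative libraries with 0 counts in PDPN+ cells. Other immune markers took other directions. Cd68 had 1, 389 and 1 counts, Cd52 had 96, 130 and 1, and Cd79a had 292, 77 and 8. Lyz2 had 546, 0 and 0 counts, and Tyrobp had 0 in each library. Of the 12 immune markers, 4, 8 and 8 had at most 3 counts. In the CD36+ library alone, Gpr143, a receptor of melanosomes, had 309 counts (5.22 CPM), with 0 in the others, and Gpr19 had 204 counts, with 1 in each of the others.

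Ligands and partners of the adhesion receptors were examined next. Of 13 tested between CD36+ and PDPN+ cells, 4 were apart and higher (15.1% of all genes) and 4 lower (17.6%), and of 14 tested in double-negative and PDPN+ cells, 4 were higher (14.9%) and 2 lower (19.3%). Of 13 tested in CD36+ and double-negative cells, 0 were higher (12.2%) and 3 lower (11.9%) in CD36+ cells. Tenm2, a teneurin that binds latrophilins, stood at 153 CPM in PDPN+ cells and had 4 and 6 counts in the CD36+ and double-negative libraries. Another teneurin gene, Tenm4, was highest in double-negative cells, at 0.0676, 7.02 and 28.8 CPM. Flrt2 was higher in the CD36+ and double-negative libraries (56.3 and 40.9 CPM against 8.33), and Flrt3 stood at 29.6, 267 and 165 CPM. Both encode FLRT proteins, the other class of latrophilin ligand. Of the Adgrg1 ligands, Tgm2 was lowest in PDPN+ cells, with 15670, 592 and 5650 counts. It stood at 265 and 112 CPM in the CD36+ and double-negative libraries, log2 ratios of 5.04 and 3.80 to the PDPN+ library. The collagen gene among these ligands, Col3a1, also on the fibroblast list, had 501, 3834 and 507 counts. Elmo1, an engulfment adaptor bound by Adgrb1, stood at 109, 0.541 and 48.9 CPM. Of the flamingo cadherins, adhesion receptors named outside the Adgr series, Celsr2 stood at 0.118, 109.8 and 8.52 CPM and Celsr1 and Celsr3 stayed below 10 CPM.

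G proteins carry the receptors' signal. Of 10 alpha subunit genes tested between CD36+ and PDPN+ cells, 1 was higher (15.1% of all genes) and 0 were lower (17.6%), with a median log2 ratio of 0.27. The higher gene was Gnao1, at 14.0 against 0.690 CPM. Between double-negative and PDPN+ cells, 0 of 9 were higher (14.9% of all genes) and 1 was lower (19.3%), Gna11, at 34.1 against 172 CPM. The stimulatory subunit gene Gnas stood at 469, 278 and 343 CPM, and the inhibitory subunit gene Gnai3 at 350.4, 298 and 214 CPM. Of 9 beta and gamma subunit genes tested, 4 were higher (15.1% of all genes) and 1 lower (17.6%) in CD36+ than in PDPN+ cells, and 4 of 9 were higher (14.9%) and 0 lower (19.3%) in double-negative than in PDPN+ cells. Gng11 stood at 322, 3.26 and 268 CPM, Gngt2 at 145, 0.757 and 68.8 CPM and Gnb4 at 52.3, 0.270 and 50.6 CPM. These 3 were apart and higher in both PDPN-negative libraries than in PDPN+ cells. Gnb2 stood at 42.1, 8.73 and 26.6 CPM and Gnb5 at 7.23, 0 and 19.1 CPM. Gng10, the gene that was lower in CD36+ cells, stood at 1.30, 36.6 and 26.1 CPM.

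Among the receptor kinases and arrestins, which switch active receptors off, 1 of 5 was higher (15.1% of all genes) and 2 were lower (17.6%) in CD36+ than in PDPN+ cells, and 0 of 5 were higher (14.9%) or lower (19.3%) in double-negative than in PDPN+ cells. Grk5 stood at 46.1, 7.53 and 29.2 CPM, Grk2 at 2.70, 39.9 and 19.0 CPM, and the arrestin gene Arrb1 at 2.96, 30.0 and 32.0 CPM. Of the RGS genes, which speed the return of G proteins to rest, Rgs16 stood at 141, 10.8 and 114 CPM, Rgs5, also on the pericyte list, at 241, 51.9 and 164 CPM and Rgs12 at 24.7 CPM in PDPN+ cells with 4 counts in each of the others. Of 6 RGS genes tested in the CD36+ and PDPN+ pair, 2 were higher (15.1% of all genes) and 2 lower (17.6%), and in the double-negative and PDPN+ pair 2 of 7 were higher (14.9%) and 1 lower (19.3%).

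The enzymes that make and break down the ligand of Gpr183 are on a list of ligands and ligand enzymes, of which 3 of 6 tested were higher in CD36+ than in PDPN+ cells (15.1% of all genes) and 5 of 8 in double-negative than in PDPN+ cells (14.9%), and 0 lower (17.6% and 19.3%). Both counts of higher genes include Gpihbp1 (130.1, 0 and 25.0 CPM), an endothelial carrier of lipoprotein lipase that is neither a ligand nor a ligand enzyme of these receptors. Ch25h, which makes 25-hydroxycholesterol, stood at 186, 6.83 and 474 CPM. Cyp7b1, the next enzyme towards the ligand, had 1888 counts (37.4 CPM) in double-negative cells and 0 in the others. Hsd3b7, which breaks the ligand down, stood at 161, 22.8 and 110.3 CPM. Rarres2, which encodes the chemokine-like protein chemerin, stood at 8.58, 32.5 and 16.9 CPM, while the chemerin receptor gene Gpr1 had 47 counts in CD36+ cells and 0 in the others.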

How the data were processed

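Bulk RNA was sequenced from 3 sorted populations, 1 library each. The authors deposited estimated counts (not whole numbers) and TPM per gene. The submitters' processing notes name Salmon 0.9.1 and mm10. The file headers also give effective lengths. No source used here gives the annotation release, strand setting or read filters. Per the labels' protocols, 2 RNA kits and 2 library kits were in use.

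Deposited estimated counts were rounded, and 52566 of 52661 identifiers matched GENCODE M21 without the version suffix. TMM factors over all 3 libraries came from edgeR 4.0.16 (R 4.3.3). Python 3.11.15 did the rest. With 1 library per group there was no test and no p-value. The calculation of the fold rule and the intervals was checked on simulated counts with planted folds and counting error only. That check says nothing about variation between animals, sorts or library kits. Named members were those with at least 10 CPM in any library; lower members were named as examples, some after their values were seen, as were the marker genes named singly. Pathway genes named had at least 10 CPM and were apart, with further ones chosen after their values were seen. Members and lists were chosen with earlier results of these data known. Alternatives were other scalings, TPM, priors, minimums and folds. Protein sequences were not used here. Some members count in the totals but are not reported here by name.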

Additional observations from a re-analysis of the deposited data

How the results depend on the processing

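No paired analysis was possible because each population had 1 library, and no library could be left out for the same reason. Total-count scaling moved the median log2 ratio to the PDPN+ library by -0.40 (CD36+) and -0.23 (double-negative), upper quartile scaling by 0.27 and 0.28, and the deposited TPM by -0.48 and -0.36. Under the 3 other scalings, a prior count of 0.5 and a 2-fold rule, the number of members apart stayed within 1.5 times its value in all 3 comparisons and both directions. With TPM and a minimum of 10 TPM, 4 members were lower in CD36+ than in PDPN+ cells (22.3% of all genes). In double-negative against PDPN+ cells, 2 were higher (12.7%). Between the CD36+ and double-negative libraries 3 were higher (10.2%) and 2 lower (12.8%). Fewer members could be tested there (17, 15 and 14). With a minimum of 1 CPM, the numbers were 13 higher and 18 lower (CD36+ against PDPN+), 12 and 21 (double-negative against PDPN+) and 11 and 10 (CD36+ against double-negative). The shares of all genes at that minimum are given above. With no minimum, the numbers were 18 and 21 (6.79% and 9.51% of all 52661 genes) and 13 and 23 (7.03% and 9.89%). For CD36+ against double-negative cells they were 15 and 12 (6.99% and 7.17%). All 104 members were counted without a minimum. No member that was apart changed direction under another scaling, another prior or TPM. Members under about 1 CPM are limited by depth.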
